A study of Mus musculus with 24 samples.

Results

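Senescent fibroblasts, whose arrest is held to be permanent, were compared with quiescent fibroblasts, whose arrest can be reversed. The comparison rests on 6 of the 24 libraries of the study, 3 senescent and 3 quiescent, chosen by their labels, and on all genes of the table. All 6 came from primary tail fibroblasts of male C57/Bl6 mice (C57BL/6J in the study's methods), 4 weeks old, were cultured in the same medium with 10% serum, and received 0.1% DMSO, the vehicle of the proteasome inhibitor MG132, for 8 h. Per the study, every cell-state was derived from 1 pool of fibroblasts, so the libraries do not stand for separate animals. Per the study's methods, senescent cultures were passaged at low density until they no longer expanded and were then rested, whereas quiescent cultures were grown to full confluence and left there. Cell density, passage number and time in culture therefore differ together with the kind of arrest, and their parts in any difference cannot be told apart. The other 18 libraries are proliferating and SV40 T antigen-immortalized fibroblasts under DMSO, and all 4 cell-states after 10 µM MG132. They share the pool of cells and are used here only for the levels and the repeat of the contrast given beside the results.

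Senescence and quiescence share the absence of DNA synthesis and differ in how it is held. Quiescent cells lower the activity of cyclin-dependent kinases through inhibitors such as p27 and can re-enter the cycle when space or growth factors return. Senescent cells keep the kinases blocked through p16 and p15, which bind CDK4 and CDK6, and through the p53 target p21, and they lose nuclear lamin B1, gain lysosomal content and secrete cytokines, proteases and growth factors, the senescence-associated secretory phenotype or SASP. In the dermis, fibroblasts make the collagen matrix, and that output is known to decline as they age in culture.

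The measurement was poly(A) RNA sequencing, and the values are TPM as the authors deposited them, transcript abundances per length scaled to the same sum in every library, so that they say nothing of the amount of RNA per cell. In bulk RNA, a lower value can come from fewer cells of a kind or from less RNA in each cell, and these cannot be told apart. The depth behind a TPM is unknown. Between 17397 and 18089 of 19880 genes were above 0 in each of the 6 libraries. Differences are on the log2(scaled TPM + 1) scale, senescent minus quiescent, with their standard error (SE), so that they understate the change of weakly expressed genes. They were tested with limma and Benjamini-Hochberg adjustment over 13489 genes, and a gene was called at an adjusted p under 0.05. Spearman's correlation between libraries was 0.961 to 0.991 within a group and 0.897 to 0.948 between the groups. Senescent replicate 1 stood apart from senescent replicates 2 and 3 and lay closest to the quiescent libraries on the first principal component, and counts without it are given for the main lists. Whether replicates are separate cultures is not in the labels. The p-values then reflect only how far libraries spread within groups, pooled over the 8 groups of all 24 libraries, and that spread may be technical.

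Of the 13489 genes tested, 5276 were called, 39.1%, with 2673 (19.8%) higher in senescent and 2603 (19.3%) higher in quiescent fibroblasts. These shares over all genes are the comparison for every count of list members below. By at least 1 log2 unit, senescent fibroblasts were higher for 874 of these genes and quiescent for 758, and by at least 3 units for 49 and 27. The 3 senescent libraries did not overlap the 3 quiescent libraries for 46.4% of all tested genes. The split of calls depended on the scale. With the scaling of TPM to a fixed sum undone, the median difference of all genes was 0.16 in place of -0.02, and the calls split into 3728 higher in senescence and 1495 higher in quiescence. On TPM as deposited the numbers were 2341 and 3020. Without senescent replicate 1, 2916 and 2922 genes were called.

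The genes that define arrest did not all follow the labels. Cdkn2a, which encodes p16 and, in another frame, ARF, was at 819, 509 and 470 TPM in the senescent libraries and at 221, 273 and 186 TPM in the quiescent. Every senescent library was above every quiescent one, by 1.42 log2 (SE 0.19, adjusted p = 8.9e-06). The table gives 1 value for the locus (chr4:89274471-89294653, GRCm38), so its transcripts are not separated. Its neighbour Cdkn2b (chr4:89306299-89311039), which encodes p15, was at 163, 182 and 165 TPM against 77.5, 76.9 and 68.8 TPM, higher by 1.23 log2 (SE 0.14, adjusted p = 9.6e-07). Cdkn1c, the gene of p57, was also higher, from means of 0.48 to 2.3 TPM, and so was Ccnd1, the gene of cyclin D1, at 312, 320 and 262 against 94.7, 102 and 116 TPM (1.55 log2, SE 0.16, adjusted p = 3.6e-07).

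Other inhibitors went the opposite way. Cdkn2c, the gene of p18, was at 0.698, 0.688 and 0.868 TPM in senescent and at 12, 13.5 and 13 TPM in quiescent fibroblasts, lower by 2.82 log2 in senescence (SE 0.25, adjusted p = 3.1e-08). Cdkn1b, the gene of the quiescence inhibitor p27, stood at 3.96, 4.23 and 4.54 TPM in senescent and 14.4, 14.4 and 15.8 TPM in quiescent libraries (-1.52 log2, SE 0.11, adjusted p = 3e-09). Neither gene overlapped between the groups. Cdkn2d, the gene of p19 of the INK4 family, was lower in senescence too (-1.45 log2, SE 0.29, adjusted p = 0.00056). Cdkn1a, the gene of p21, showed no such separation: it was abundant in both states, at 1021, 1313 and 1319 TPM in senescent and 1416, 1174 and 1307 TPM in quiescent fibroblasts, and the difference was -0.05 log2 (SE 0.14, adjusted p = 0.81), with a sign that turned under some of the settings given in the closing section. The list of these genes held CDK inhibitors, CDKs, cyclins D, RB and E2F family genes and their partners. Of its 22 members, 7 were higher and 8 lower in senescence, beside 19.8% and 19.3% of all genes.

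**Figure D1:**
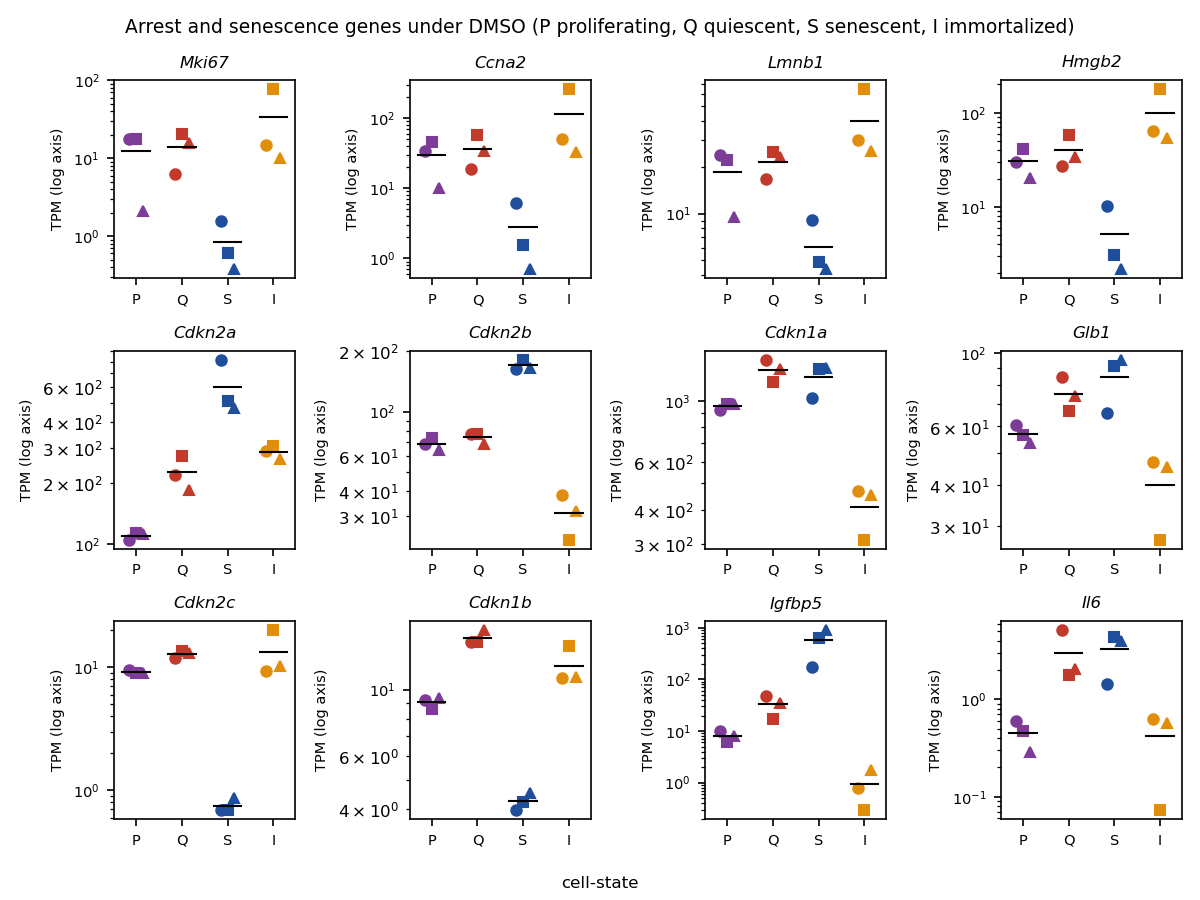
TPM of 12 genes of arrest and senescence in the 12 DMSO libraries, on log axes, for proliferating (P), quiescent (Q), senescent (S) and immortalized (I) fibroblasts, with circles, squares and triangles for replicates 1, 2 and 3 and a line at the mean. Mki67, Ccna2, Lmnb1 and Hmgb2 were lower in each senescent library than in every library of the other cell-states, and Cdkn1a, Glb1 and Il6 overlapped between senescent and quiescent libraries.

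Further markers of senescence were mixed. Lmnb1, the gene of lamin B1, was at 9.02, 4.84 and 4.32 TPM in senescent and 16.8, 25.2 and 23.4 TPM in quiescent fibroblasts, without overlap (-1.66 log2, SE 0.36, adjusted p = 0.0013). Hmgb2, a chromatin protein lost in senescence, was at 10.2, 3.09 and 2.16 TPM against 27.1, 58 and 34.1 TPM (-2.78 log2, SE 0.50, adjusted p = 0.00022). Of 18 genes of the nuclear lamina and of chromatin, 11 were lower in senescence and 0 higher. Hmga1, Hmga2 and Macroh2a1 had positive differences without a call (0.57, 0.29 and 0.24 log2). Ezh2, the histone H3 lysine 27 methyltransferase, was at -1.86 log2 (SE 0.34). When single libraries were left out, 6 to 14 of the 18 were lower. The count was 6 without senescent replicate 3 or quiescent replicate 2 and 7 without senescent replicate 2. Glb1, which encodes the lysosomal beta-galactosidase stained as a senescence marker, was at 65.9, 91.7 and 95.7 TPM in senescent and 84.8, 66.6 and 74.3 TPM in quiescent fibroblasts. These libraries overlapped, and the difference was 0.20 log2 (SE 0.15, adjusted p = 0.3). Trp53, the gene of p53, was slightly lower in senescence (-0.37 log2, SE 0.09, adjusted p = 0.0033), a call that was lost with the fixed-sum scaling undone (-0.16 log2, adjusted p = 0.27).

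Among 34 targets of p53, 12 were higher and 6 lower in senescent fibroblasts, beside 19.8% and 19.3% of all genes. The lower count was near the share of all genes. Perp, a membrane protein of desmosomes and p53-dependent cell death, was at 26.3, 36.1 and 29.9 TPM in senescent libraries and under 1 TPM in every quiescent one (0.755, 0.229 and 0.672 TPM), a difference of 4.23 log2 (SE 0.19, adjusted p = 1.9e-12). Pmaip1, which encodes the BH3-only protein NOXA, was at 110, 133 and 160 against 8.26, 5.42 and 5.5 TPM (4.21 log2, SE 0.16, adjusted p = 2.2e-13). Both genes were far apart between the states. Bbc3, the gene of the related death protein PUMA, lay on the other side at 41.8, 34.9 and 20.8 against 65.7, 89.3 and 73.1 TPM (-1.19 log2, SE 0.21, adjusted p = 0.0002).

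Mitosis was the only list described here of which every tested gene was called in the same direction. All 36 genes tested were lower in senescent than in quiescent fibroblasts, beside 19.3% of all genes, with a median of -2.51 log2 and values from -3.31 to -1.35, and for all 36 the highest senescent library lay below the lowest quiescent one. The median was -2.94 without senescent replicate 1, and 32 to 36 were called when each library was left out. Ccna2, the gene of cyclin A2, which drives S phase and mitotic entry, was at 6.24, 1.56 and 0.695 TPM in senescent and at 18.9, 56.7 and 34.4 TPM in quiescent libraries (-3.31 log2, SE 0.76, adjusted p = 0.002). Mki67, which encodes the proliferation antigen Ki-67, was at 1.56, 0.615 and 0.375 TPM against 6.27, 20.2 and 15.6 TPM (-2.77 log2, SE 0.67, adjusted p = 0.003). In each of these genes senescent replicate 1 was the highest senescent library and quiescent replicate 1 the lowest quiescent one. The mean log2 level of the mitotic list was 2.57, 1.38 and 1.08 in the senescent libraries and 3.42, 4.73 and 4.12 in the quiescent.

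The quiescent libraries overlapped the proliferating ones in mitotic genes. The proliferating DMSO libraries had mean log2 levels of 4.37, 4.63 and 3.07 on the same scale, which overlap the quiescent values. For 27 of 36 mitotic genes the quiescent mean TPM exceeded the proliferating mean, but this count rested on proliferating replicate 3, the lowest of its group, and was 4 without it (an alternative added after the values were seen). The study's methods define the quiescent state by absent EdU label, a measure of DNA synthesis that is not part of these data. Of 35 genes of S phase, 33 were lower in senescence and 1 was higher, with a median of -1.42 log2, and 25 to 33 were lower when single libraries were left out. The largest was Tk1, the gene of cytosolic thymidine kinase, at 4.58, 1.72 and 0.656 against 17.5, 56.9 and 31.2 TPM (-3.34 log2, SE 0.58, adjusted p = 0.00014). Pclaf, which encodes a PCNA-binding protein, followed the same order of libraries (2.55, 0.565 and 0.157 against 15.2, 44.2 and 27.6 TPM). The exception was Rrm2, the small subunit of ribonucleotide reductase, at 308, 219 and 154 TPM in senescent and 96.3, 138 and 120 TPM in quiescent libraries (0.94 log2, SE 0.31, adjusted p = 0.022), a call lost without senescent replicate 1 (0.64 log2, adjusted p = 0.12) and without quiescent replicate 1 or 3.

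Many mitotic promoters carry the cell cycle homology region, or CHR, at which the DREAM complex represses in arrested cells. The letters TTTGAA or TTCGAA on either strand were found within 250 bases before to 50 bases after the start in 24 of the 30 called mitotic genes with a RefSeq promoter (80%), and in 14% of the 10435 tested genes with one. Of the 5 such genes with the largest difference, Plk1 holds its match after the start and is not printed. The matches of the other 4 are shown because these genes fell furthest among those with the motif, with the motif of either strand in capitals and 30 bases on each side, from RefSeq on GRCm38.p6, read along the gene.
Top2a, chr11:99024177-99024242 (minus strand): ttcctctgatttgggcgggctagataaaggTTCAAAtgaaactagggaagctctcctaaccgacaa
Ube2c, chr2:164769870-164769935 (plus strand): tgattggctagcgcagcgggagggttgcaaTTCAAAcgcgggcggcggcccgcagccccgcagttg
Prc1, chr7:80294416-80294481 (plus strand): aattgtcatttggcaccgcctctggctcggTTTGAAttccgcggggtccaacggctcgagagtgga
Ckap2l, chr2:129297207-129297272 (minus strand): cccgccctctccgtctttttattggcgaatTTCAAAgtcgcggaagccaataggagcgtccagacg
Top2a, which encodes the topoisomerase that untangles chromosomes, was at 6.81, 2.46 and 1.46 TPM in senescent and 19.9, 56.8 and 41.9 TPM in quiescent libraries, and Ube2c, a ubiquitin-conjugating enzyme of the anaphase-promoting complex, at 20.5, 5.12 and 3.9 against 43.8, 131 and 76.4 TPM. A match describes the letters only and no binding was measured.

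Of the genes with the largest differences, those higher in senescence included Prl2c3, Hsd3b6, Prl2c2, Lce1g, Crct1, Car3, Cpm, Ivl, Serpinb9b, Esm1 and Wfdc1. Prl2c3 (chr13:12790816-12800079), a proliferin gene of the prolactin family, was at 1353, 2985 and 7043 TPM in senescent and 27, 10.4 and 9.84 TPM in quiescent fibroblasts (7.68 log2, SE 0.66, adjusted p = 2.3e-08). Prl2c2 (chr13:12996125-13005383) followed it at 646, 1345 and 3579 against 35.5, 12.6 and 12.8 TPM. The proliferin genes are near-identical copies, and how their reads were shared among them is uncertain. Hsd3b6, a 3-beta-hydroxysteroid dehydrogenase (chr3:98805504-98814443), was at 102, 264 and 310 TPM in senescent libraries and listed at 0, 0 and 0.052 TPM in quiescent ones (7.43 log2, SE 0.29, adjusted p = 2.2e-13).

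Cpm, a membrane carboxypeptidase, was at 448, 703 and 520 TPM against 15.8, 12.4 and 18 TPM (5.11 log2, SE 0.25, adjusted p = 5.4e-12). Esm1, an endocan proteoglycan also made by endothelial cells, was at 20.9, 61.4 and 76.9 against 1.25, 0.427 and 0.402 TPM. The 10 endothelial markers summed to 30 to 40.5 TPM in senescent and 37.3 to 46.3 TPM in quiescent libraries. Of these markers, 7 stayed under 1 TPM in all 6 libraries, Pecam1, Cdh5 and Kdr among them. None of the 4 tested was called, and the part of endothelial cells was not tested. Car3, a carbonic anhydrase, Serpinb9b, a serpin with close paralogs, and Wfdc1, a secreted protease inhibitor, were each lowest in senescent replicate 1 among the senescent libraries, and no senescent library overlapped a quiescent one. Their differences were 5.30, 4.76 and 4.46 log2.

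The 12 highest in quiescence were Cxcl5, Postn, Thbs4, Fabp5, Iigp1, Ptx3, Pclaf, Ifi27l2a, Cxcl1, Slc16a3, Tk1 and Ccna2. Cxcl5, a neutrophil chemokine, was at 2.69, 6.68 and 13.8 TPM in senescent and 365, 141 and 182 TPM in quiescent fibroblasts (-4.75 log2, SE 0.58, adjusted p = 2.3e-06). Postn, which encodes the matricellular protein periostin, was at 6.03, 2.72 and 4.76 TPM against 116, 148 and 156 TPM (-4.62 log2, SE 0.45, adjusted p = 1.1e-07). No senescent library came near the quiescent ones in either gene. Ptx3, a soluble pattern recognition protein, stood at 31.8, 40.1 and 62.3 against 794, 520 and 592 TPM (-3.78 log2, SE 0.26, adjusted p = 1.2e-09). Fabp5, a fatty acid carrier, was at 26.9, 13.9 and 7.56 against 190, 361 and 213 TPM, and Slc16a3, the lactate exporter MCT4, at 17.6, 12.3 and 10.8 against 122, 176 and 162 TPM. Thbs4, a thrombospondin of tendon and scar, had the widest spread of these genes, with 19.7, 150 and 402 TPM in senescent and 4791, 783 and 1964 TPM in quiescent libraries.

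**Figure D2:**
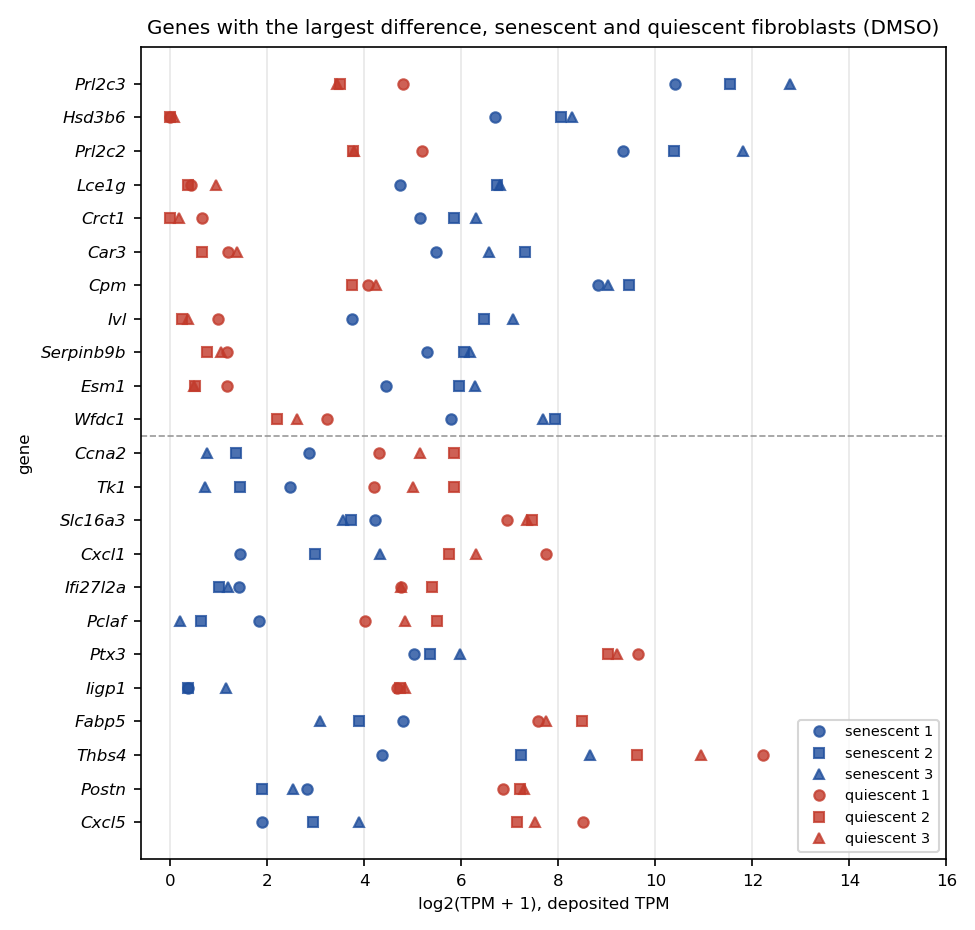
The 23 genes reported with the largest differences, as log2(TPM + 1) of the deposited TPM in each of the 3 senescent (blue) and 3 quiescent (red) DMSO libraries, with circles, squares and triangles for replicates 1, 2 and 3. No gene overlapped between the groups, which the choice of these genes required, and Thbs4 spread widely within both groups.

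A run of epidermal genes lay among the top genes. The epidermal differentiation complex is a cluster of genes on chromosome 3 that build the cornified layer of keratinocytes, and it was singled out after its values were seen. From Prr9 to Tchhl1 (chr3:92122204-93471980, GRCm38) the table held 32 genes, of which 19 passed the filter on low values. Of those 19, 13 were higher in senescence and 0 higher in quiescence, beside 19.8% and 19.3% of all genes. Without the filter, the senescent mean TPM was above the quiescent mean for 28 of the 32 genes and equal for 1, though many of these values were near 0. As 14 of the 32 were at 0 in all quiescent libraries, passing the filter favoured genes with a high senescent level. Ivl, the gene of involucrin, was at 12.4, 87.6 and 133 TPM in senescent and 0.985, 0.186 and 0.293 TPM in quiescent libraries (5.08 log2, SE 0.69, adjusted p = 9.4e-06). Crct1 was at 34.4, 56.8 and 77.9 against 0.586, 0 and 0.131 TPM, and Lce1g, a late cornified envelope gene with close paralogs, at 25.7, 106 and 110 against 0.341, 0.29 and 0.912 TPM. In all 3 genes senescent replicate 1 was the lowest senescent library and still above every quiescent one.

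Markers of keratinocytes moved with these genes in part. The summed TPM of the 11 keratinocyte markers in the table was 24.8 to 157 in senescent and 5.75 to 6.94 in quiescent libraries, and Ivl and Dsp, the desmosome protein desmoplakin (7.56, 17.2 and 19.4 against 0.669, 0.597 and 1.12 TPM), were the 2 called. The defining markers of basal keratinocytes were near 0: Krt14 was at 0, 0.0689 and 0.229 TPM in senescent and 0 in all quiescent libraries, Krt15 was at most 0.124 TPM and Trp63 at most 0.177 TPM, and 7 of the 11 markers were under 1 TPM in all 6 libraries. Macrophage markers summed to 25.6 to 41.4 TPM in senescent and 16.8 to 25 TPM in quiescent libraries. Of the 4 that could be tested, Csf1r and Cd68 were higher in senescence, and 0 to 2 were when single libraries were left out, while 11 of 15, with Ptprc, Adgre1 and Itgam among them, were under 1 TPM throughout. The 17 fibroblast markers summed to 27322 to 33308 TPM in senescent and 33535 to 35871 TPM in quiescent libraries, with 6 higher and 6 lower in senescence. Other marker sums that did not overlap were those of glial cells and melanocytes, at 46.2 to 99.6 TPM in senescent and 22.4 to 36.8 TPM in quiescent libraries, of pericytes and mural cells, at 66.2 to 102 against 50.3 to 61.7 TPM, and of adipocytes, at 16.3 to 39.7 against 51.9 to 94.2 TPM. Among the 6 glial and melanocyte markers tested, 3 were higher in senescence, while Sox10, Dct and Mlana were under 1 TPM in all 6 libraries. Of the pericyte markers 2 of 5 tested were higher, with Kcnj8 and Abcc9 under 1 TPM, and of the adipocyte markers 2 of 4 tested, Fabp4 and Lpl, were lower, with Adipoq and Cidec under 1 TPM. The part of such cells in the differences was not tested.

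Matrix genes were lower in senescence as a group. Of 23 collagen genes tested, 14 were lower and 3 higher in senescent fibroblasts, with a median of -1.01 log2, and 5 were higher with the fixed-sum scaling undone. Col1a2, a chain of the fibrillar type I collagen of dermis, was at 1099, 1508 and 1347 TPM in senescent and 11061, 9942 and 12272 TPM in quiescent libraries (-3.03 log2, SE 0.13, adjusted p = 1.3e-12). Col1a1, the partner chain, was at 758, 1030 and 752 against 3697, 3885 and 4439 TPM, and Col3a1 at 154, 392 and 304 against 1953, 1262 and 1723 TPM. All collagens together took 0.482, 0.668 and 0.6% of the senescent TPM and 2.26, 2.01 and 2.51% of the quiescent TPM, groups that did not overlap (two-sided exact permutation p = 0.1, the smallest that 3 against 3 allows). The exceptions were chains of basement membrane and anchoring fibrils. Col4a1 and Col4a2, which share a promoter region, were at 650, 709 and 636 and at 469, 594 and 527 TPM in senescence against 298, 320 and 380 and 239, 242 and 297 TPM in quiescence, higher by 1.05 and 1.07 log2, and Col7a1 was higher by 1.04 log2 (SE 0.24, adjusted p = 0.0019).

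The rest of the matrix was more divided. Of 42 glycoproteins and proteoglycans, 18 were lower, led by Postn and Thbs4, and 6 higher, led by Dcn, Nid1 and Tnxb, with 3 higher without senescent replicate 3 or quiescent replicate 2. Over all genes 19.3% were lower and 19.8% higher, so the higher count was below its share. Nid1, the basement membrane linker nidogen, was at 575, 944 and 1112 TPM in senescent and 233, 182 and 254 TPM in quiescent fibroblasts (1.98 log2, SE 0.20, adjusted p = 1.7e-07). Dcn, the gene of the collagen-binding proteoglycan decorin, was at 23, 105 and 193 against 36.8, 10.2 and 16.7 TPM. Its libraries overlapped, and its call (2.05 log2, SE 0.60, adjusted p = 0.011) was lost without senescent replicate 3 or quiescent replicate 2. Among proteases and their inhibitors, 14 of 34 were higher and 6 lower, the latter near the share of all genes. Ctsl and Ctsd, cathepsins of the lysosome, were among the higher ones, and Mmp9, a gelatinase, at 4.34, 5.95 and 8.66 against 35.2, 28 and 38.5 TPM, and Adamts2, which trims procollagen, at 6.01, 6.51 and 6.93 against 32.3, 32.7 and 39.4 TPM, were among the lower. Mmp3, a stromelysin typical of the SASP, was at 46.6, 265 and 1097 against 347, 51.4 and 114 TPM, with a spread of libraries that left no call (0.96 log2, SE 1.03, adjusted p = 0.49).

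Contractile genes were lower in senescence and genes driven by YAP and TEAD were higher. Of 23 myofibroblast and smooth muscle genes, 10 were lower and 2 higher, with 6 lower without senescent replicate 3. Actg2, a smooth muscle actin, was at 120, 100 and 66.8 against 427, 577 and 471 TPM (-2.33 log2, SE 0.26, adjusted p = 9.5e-07). Acta2, the actin that marks myofibroblasts, was at 2247, 1725 and 875 against 3535, 5826 and 4597 TPM (-1.55 log2, SE 0.43, adjusted p = 0.0074), a call lost without senescent replicate 3 (-1.13 log2, adjusted p = 0.06). Of 10 called lower genes, 7 had a RefSeq promoter, and the CArG box of serum response factor was found in 1 of them (Myl9, 14.3%), beside 1.39% of tested genes. YAP and TEAD, which act in spread and sparse cells and are inactive at confluence, had 25 targets tested, of which 14 were higher in senescence and 0 lower, with a median of 0.75 log2. Ccn2, a matricellular growth factor binder, was at 5710, 3171 and 1989 TPM in senescent and 305, 559 and 457 TPM in quiescent fibroblasts (2.99 log2, SE 0.44, adjusted p = 2.6e-05). Ankrd1 was at 58, 48.9 and 29.9 against 7.45, 10.8 and 9.57 TPM, and Ccn1 at 1449, 1200 and 1193 against 805, 894 and 873 TPM (0.62 log2, SE 0.14). In none of the 3 did the libraries overlap.

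**Figure D3:**
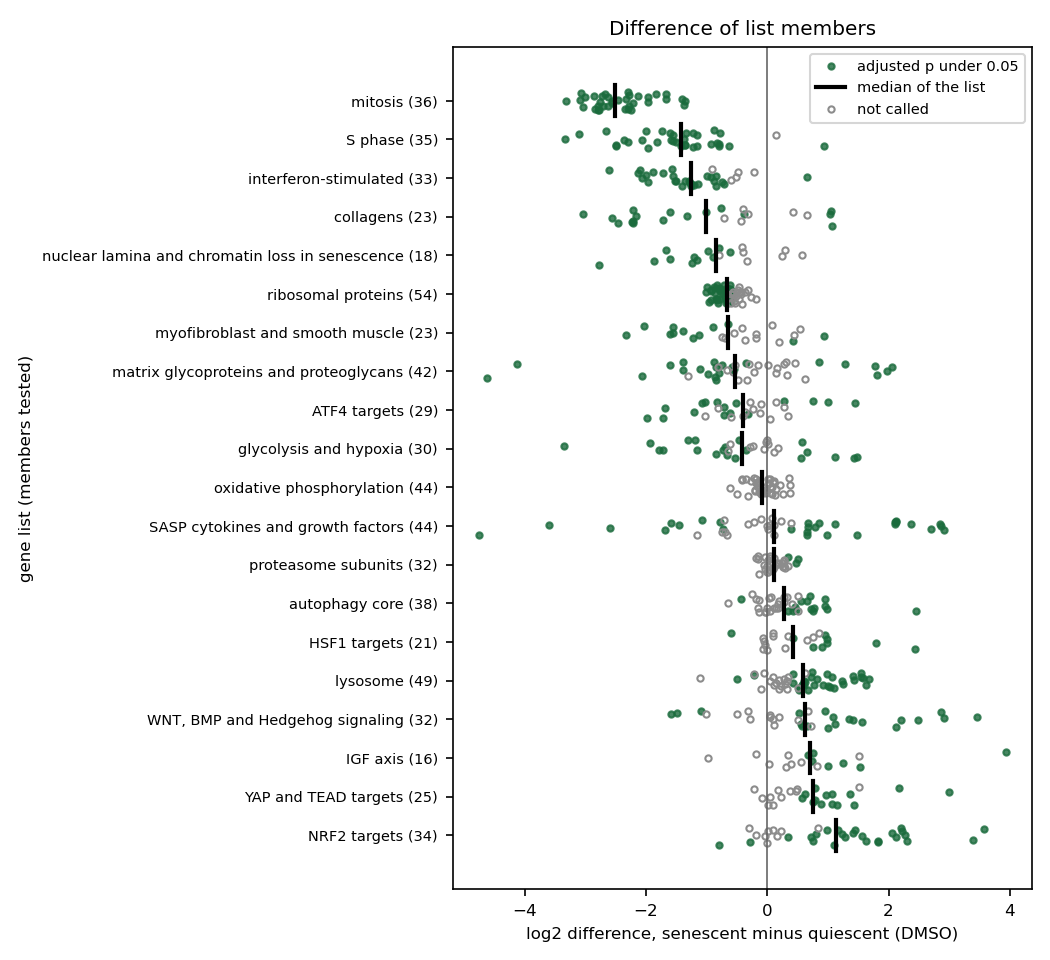
Differences of single genes, senescent minus quiescent under DMSO on the log2 scale, for 20 gene lists with the number tested in brackets. Filled points passed an adjusted p of 0.05 and open points did not, and the bar is the median of the list. The medians run from -2.51 for mitosis to 1.14 for NRF2 targets, and oxidative phosphorylation holds no called gene.

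Without senescent replicate 1, the numbers of members higher and lower in senescence were 15 and 6 for p53 targets, 17 and 10 for SASP genes, 17 and 5 for proteases and their inhibitors, 4 and 14 for collagens, and 15 and 0 for targets of YAP and TEAD. They were 22 and 3 for NRF2 targets, 30 and 0 for lysosomal genes, 0 and 28 for interferon-stimulated genes, 18 and 2 for the WNT, BMP and Hedgehog list, and 8 and 4 for the list of the TAK1 and p38 pathway.

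Of 44 SASP cytokines and growth factors, 19 were higher in senescence and 9 lower, beside 19.8% and 19.3% of all genes, with a median of 0.12 log2. The median was 0.32 without senescent or quiescent replicate 1 and 0.29 with the fixed-sum scaling undone, and it was -0.00 without senescent replicate 3, 0.02 without quiescent replicate 2 and 0.05 without quiescent replicate 3. Bmp2, a bone morphogenetic protein, was at 7.06, 11.2 and 9.95 against 0.0592, 0.227 and 0.369 TPM (2.92 log2, SE 0.13, adjusted p = 1.9e-12). Il11, a fibrogenic cytokine of the IL-6 family, was at 110, 199 and 210 against 27.8, 19.7 and 22 TPM (2.84 log2, SE 0.29, adjusted p = 2e-07), and Ccl8 at 15.4, 42.8 and 87.7 against 7.62, 2.45 and 4.4 TPM. These 3 genes did not overlap between the states.

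Several classic SASP genes were not among them. Il6 was low in both states, at 1.44, 4.34 and 3.99 against 5.16, 1.8 and 2.05 TPM, and the difference of 0.12 log2 (SE 0.31, adjusted p = 0.79) changed sign when single libraries were left out. Ccl2, a monocyte chemokine, was at 111, 274 and 606 against 880, 309 and 350 TPM (-0.74 log2, SE 0.72, adjusted p = 0.44). The chemokines Cxcl5, Cxcl1 and Ccl20 were higher in quiescence, with Cxcl1 at 1.73, 6.89 and 19.1 against 213, 52.9 and 78 TPM. For Il6, Ccl2 and Cxcl1, quiescent replicate 1 was the highest of all 6 libraries. Of 16 genes of the insulin-like growth factor axis, 7 were higher and 0 lower in senescence. Igfbp5, a binding protein of the secretome, was at 171, 643 and 911 against 47, 17.3 and 34.3 TPM (3.93 log2, SE 0.46, adjusted p = 1.4e-06), while Igfbp3 overlapped at 43.5, 160 and 323 against 93.6, 26.1 and 41.2 TPM (1.52 log2, SE 0.68, adjusted p = 0.083). Without senescent replicate 1, and also with the fixed-sum scaling undone, 11 of the 16 were called, and Igfbp3 passed in both settings (2.25 log2, adjusted p = 0.012, and 1.73 log2, adjusted p = 0.048).

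Interferon-stimulated genes, which include the sensors and effectors of the antiviral response, were lower in senescence. Of 33 tested, 27 were lower and 1 higher, with a median of -1.25 log2 and 21 to 28 lower when each library was left out. Oas1a, an oligoadenylate synthetase, was at 1.54, 0.246 and 0.683 TPM in senescent and 9.1, 11.7 and 12.1 TPM in quiescent libraries (-2.60 log2, SE 0.50, adjusted p = 0.00044). Xaf1 was at 23.8, 7.82 and 13 against 57.6, 76.6 and 63.4 TPM, and Trim30a at 1.81, 0.902 and 1.32 against 11.1, 8.5 and 9.99 TPM. Senescent libraries had mean log2 levels of the list of 2.89, 2.18 and 2.55. The quiescent levels were 3.66, 3.89 and 3.78, and proliferating DMSO libraries stood at 1.96, 1.91 and 2.57. Quiescent values were thus the higher of the pair, and senescent values lay nearer to the proliferating ones. The exception, Ifit2, was at 35.5, 27.9 and 36.7 against 17.9, 22.8 and 24.2 TPM (0.65 log2, adjusted p = 0.017, lost without senescent replicate 1 or 3 or quiescent replicate 1). Iigp1 and Ifi27l2a of the top genes are known to be interferon-induced too, Iigp1 at 0.294, 0.29 and 1.22 against 24.7, 25.7 and 27.7 TPM. Genes of class I antigen presentation went the same way, with 10 of 17 lower and 1 higher, Tapbpl. With the fixed-sum scaling undone 7 were lower, and 0 to 2 were higher when single libraries were left out. Among the lower ones was the immunoproteasome subunit Psmb8 at 9.71, 7.18 and 10.6 against 38.4, 27.4 and 30.9 TPM (-1.65 log2, SE 0.28, adjusted p = 0.00011).

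The interferon-stimulated response element, here the letters GAAA, any 2 bases and GAAA again on either strand, binds the STAT and IRF factors that interferon activates. It was found in 11 of the 19 called lower genes with a RefSeq promoter (57.9%) and in 3% of tested genes. The 4 such genes with the largest difference are shown with every match in capitals, where adjoining matches run together, on GRCm38.p6.
Oas1a, chr5:120907500-120907569 (minus strand): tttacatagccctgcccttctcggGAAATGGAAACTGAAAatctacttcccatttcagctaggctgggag
Trim30a, chr7:104465190-104465259 (minus strand): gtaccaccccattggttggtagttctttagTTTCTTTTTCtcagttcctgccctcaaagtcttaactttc
Isg15, chr4:156200845-156200914 (minus strand): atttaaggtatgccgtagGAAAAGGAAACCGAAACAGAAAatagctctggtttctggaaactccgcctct
Bst2, chr8:71537557-71537626 (minus strand): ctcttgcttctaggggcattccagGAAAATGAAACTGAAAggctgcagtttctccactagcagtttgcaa
Isg15, a ubiquitin-like effector, holds 3 overlapping matches and had a difference of -2.07 log2 (SE 0.53, adjusted p = 0.0042), and Bst2, which tethers budding viruses, was at -1.56 log2 (SE 0.45, adjusted p = 0.01).

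Targets of NRF2, the transcription factor of the antioxidant and detoxification response, were higher in senescence. Of 34 tested, 23 were higher and 2 lower, with a median of 1.14 log2 and 19 to 22 higher when each library was left out. Hmox1, the gene of heme oxygenase 1, was at 1837, 2750 and 4730 TPM in senescent and 346, 186 and 242 TPM in quiescent fibroblasts (3.57 log2, SE 0.43, adjusted p = 1.9e-06). Nqo1, a quinone reductase, was at 586, 798 and 973 against 93, 65.6 and 68.6 TPM (3.39 log2, SE 0.25, adjusted p = 2.5e-09). In both genes senescent replicate 1 was the lowest of its group and still well above the highest quiescent library. Gclm, the regulatory subunit of glutathione synthesis, was at 62.3, 79.9 and 106 against 20.3, 14.6 and 16.6 TPM, and Aldh3a1, an aldehyde dehydrogenase, at 10.4, 26.5 and 30.7 against 4.08, 2.23 and 3.89 TPM. Keap1, whose protein holds NRF2 inactive, was lower by a small margin (-0.28 log2, SE 0.09, adjusted p = 0.022), a call lost with the fixed-sum scaling undone and without senescent replicate 2 or quiescent replicate 1.

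The antioxidant response element, TGACNNNGC on either strand, was searched after the values were seen. It was present in 7 of the 19 called higher targets with a RefSeq promoter (36.8%) and in 14.8% of tested genes. Of the 4 with the largest difference, Srxn1 holds its match after the start and is not printed, and the other 3 follow with the element in capitals, since they carry the largest of these differences.
Gclm, chr3:122245393-122245461 (plus strand): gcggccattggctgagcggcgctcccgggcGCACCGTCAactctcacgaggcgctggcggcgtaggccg
Gsta3, chr1:21240434-21240502 (plus strand): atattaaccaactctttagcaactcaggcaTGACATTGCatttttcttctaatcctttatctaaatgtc
Prdx1, chr4:116685436-116685504 (plus strand): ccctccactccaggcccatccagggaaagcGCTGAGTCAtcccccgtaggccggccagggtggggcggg

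Lysosomal genes were higher as a group in senescence, though Glb1 was not. Of 49 tested, 29 were higher and 2 lower, with a median of 0.59 log2 and 22 to 30 higher when each library was left out. The first of them was Hyal1, which degrades hyaluronan, at 8.2, 20.6 and 29.4 against 4.94, 3.44 and 6.09 TPM (1.68 log2, SE 0.27, adjusted p = 6.9e-05). Ctsd, the aspartic protease cathepsin D, was at 1724, 2518 and 2678 against 923, 678 and 763 TPM (1.58 log2, SE 0.19, adjusted p = 2.5e-06). Ctsl, a cysteine cathepsin, was at 285, 393 and 517 against 171, 108 and 115 TPM. None of these overlapped. The 2 lower genes, Lgmn and Tfe3, were lost under several settings, among them the fixed-sum scaling undone. The CLEAR element TCACGTGA, the palindrome bound by TFEB and its relatives, was found in 4 of the 23 called higher genes with a RefSeq promoter (17.4%) and in 1.95% of tested genes. The 3 with the largest difference are shown, and Gla holds a second match at the edge of its window.
Ctsd, chr7:142387889-142387956 (minus strand): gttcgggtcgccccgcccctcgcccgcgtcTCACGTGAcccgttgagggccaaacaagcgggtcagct
Gla, chrX:134601163-134601230 (minus strand): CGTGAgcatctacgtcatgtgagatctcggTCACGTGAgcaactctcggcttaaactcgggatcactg
Mcoln1, chr8:3500443-3500510 (plus strand): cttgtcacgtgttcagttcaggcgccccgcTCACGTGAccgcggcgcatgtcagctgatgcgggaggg
No match of 1 of the searched motifs overlapped a match of another in the 16 promoters examined this way.

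Autophagy genes were higher by smaller amounts, with 14 of 38 higher and 1 lower, and 9 higher without senescent replicate 3. Sqstm1, which encodes the cargo receptor p62 and is itself a target of NRF2, stood apart at 1174, 1364 and 1972 TPM in senescent and 322, 232 and 274 TPM in quiescent fibroblasts (2.46 log2, SE 0.27, adjusted p = 6.6e-07). Gabarapl2 and Gabarapl1, ubiquitin-like proteins of the autophagosome membrane, were higher by 0.98 and 0.96 log2. Of 27 genes linked to the aggresome, the perinuclear deposit of proteins awaiting degradation, 13 were higher in senescence and 2 lower, and 8 were higher without quiescent replicate 2. Vim, the gene of the cage filament vimentin, was at 25870, 25968 and 21174 against 13906, 14990 and 14439 TPM (0.79 log2, SE 0.19, adjusted p = 0.0029), a difference that missed the threshold when only the 6 libraries were fitted (adjusted p = 0.09). Hdac6, the deacetylase that loads cargo on dynein, at 9.75, 13.1 and 13.1 against 10.3, 8.45 and 10.1 TPM, overlapped before scaling (0.32 log2, SE 0.11, adjusted p = 0.024), and Vcp, the segregase p97, differed by 0.28 log2 (SE 0.10, adjusted p = 0.024). Both calls were lost on TPM as deposited, when only the 6 libraries were fitted, and without senescent replicate 3 or quiescent replicate 2, among others.

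The list of the TAK1 and p38 pathway, which holds kinases, their regulators and phosphatases, was divided. Of its 26 members tested, 10 were higher and 4 lower, beside 19.8% and 19.3% of all genes. Among the p38 kinases, Mapk13 was higher in senescence at 25.5, 26.3 and 21.6 against 16.2, 15 and 15.8 TPM (0.65 log2, SE 0.12, adjusted p = 0.00024), and Mapk12 was lower at 2.59, 2.61 and 2.77 against 8.5, 10.1 and 8.63 TPM (-1.37 log2, SE 0.21, adjusted p = 4.6e-05). Mapk11 and Mapk14, the beta and alpha forms, were lower by smaller amounts (-0.62 and -0.31 log2), with the call of Mapk14 lost when the fixed-sum scaling was undone. Map3k7, the gene of TAK1, was at 25, 30.9 and 33.4 against 28, 25.1 and 29.3 TPM and was not called (0.15 log2, SE 0.09, adjusted p = 0.18). Dusp1, a phosphatase that ends p38 and JNK signals, was at 163, 154 and 155 against 48.1, 48.8 and 53.4 TPM (1.68 log2, SE 0.09, adjusted p = 2.6e-11). A second phosphatase, Dusp4, which acts on ERK, was further apart at 39.2, 57.3 and 54.3 against 3.23, 2.65 and 3.73 TPM (3.58 log2, SE 0.20, adjusted p = 5.5e-11). It led the 12 of 34 immediate early genes that were higher, while Fos, at 14.2, 23.2 and 17 against 41.3, 33.1 and 42.8 TPM, led the 6 that were lower, of which 3 were lower with the fixed-sum scaling undone. The 6 lower genes were near the share of all genes.

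Of 32 genes of the WNT, BMP and Hedgehog pathways, 17 were higher in senescence and 3 lower, with a median of 0.62 log2. Grem1, the BMP antagonist gremlin, was at 506, 546 and 697 TPM in senescent and 55.7, 46.4 and 59 TPM in quiescent fibroblasts, and had the smallest adjusted p of the genes named here (3.45 log2, SE 0.12, adjusted p = 1e-13). Lef1, a transcription factor of the WNT pathway, was at 22.2, 14.2 and 9.78 against 0.604, 1.88 and 0.78 TPM (2.87 log2, SE 0.35, adjusted p = 2.2e-06). Tcf7, a related factor, and the WNT target Axin2 were named after their values were seen. Tcf7 was at 9.21, 12.4 and 16.9 against 1.19, 1.09 and 1.71 TPM, and Axin2 at 6.96, 13.7 and 16.2 against 1.95, 1.03 and 2.13 TPM. Sfrp1 and Sfrp2, secreted WNT inhibitors, were higher in quiescence (-1.49 and -1.09 log2), but the libraries of Sfrp1 overlapped and its call was lost without senescent replicate 1 (adjusted p = 0.087) or quiescent replicate 1 (adjusted p = 0.07). The Notch ligand Jag1 was at 12.2, 13.5 and 11.1 against 2.19, 2.28 and 2.96 TPM (1.92 log2, SE 0.23, adjusted p = 2.3e-06).

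Of 33 genes tied to quiescence, 9 were higher and 8 lower in senescence, near the shares of 19.8% and 19.3% over all genes, with 4 lower without senescent replicate 2 or quiescent replicate 1 or 3 and 3 lower with the fixed-sum scaling undone. Gas1, a growth arrest gene of the Hedgehog co-receptor family, was at 6.07, 10.2 and 21 TPM in senescent and 107, 50.3 and 71.8 TPM in quiescent libraries (-2.55 log2, SE 0.50, adjusted p = 0.00045). Of 19 genes tested in a separate list of imprinted growth genes, 6 were higher and 4 lower in senescence, with a median of 0.07 log2. Over all genes 19.8% were higher and 19.3% lower, so the lower count was near its share. Among its lower members, Dio3, a deiodinase that inactivates thyroid hormone, was at 38.4, 109 and 113 against 363, 185 and 258 TPM (-1.67 log2, SE 0.33, adjusted p = 0.00049). H19, a noncoding RNA of the same list, was at 0.618, 0.811 and 2.03 against 15, 7.32 and 11.2 TPM. Gas1, Dio3 and H19 were clear of overlap. In the quiescence list, Pdgfra, the receptor of a fibroblast mitogen, overlapped between the groups (8.67, 21.2 and 36.6 against 58.1, 26.9 and 48 TPM, -1.06 log2, adjusted p = 0.038). It lost its call without senescent replicate 1 or 2 or quiescent replicate 1 or 3. Pdk4, which turns pyruvate away from the mitochondria, was higher in senescence at 5.34, 6.35 and 5.27 against 1.03, 1.13 and 1.08 TPM (1.62 log2, SE 0.16, adjusted p = 1.1e-07).

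Metabolic genes differed by pathway. Of 30 genes of glycolysis and hypoxia, 14 were lower and 6 higher in senescence, beside 19.3% and 19.8% of all genes. The higher count was near the share of all genes. P4ha2, a collagen prolyl hydroxylase induced by hypoxia, was at 200, 304 and 336 against 1311, 884 and 1083 TPM (-1.93 log2, SE 0.19, adjusted p = 1.7e-07), while the glucose transporter Slc2a1, at 204, 189 and 185 against 67.7, 72.6 and 79.9 TPM, and the hexokinase Hk2, at 34.8, 48.7 and 44.1 against 13.7, 13.5 and 17.5 TPM, were higher. Of 29 targets of ATF4, the factor of amino acid stress, 12 were lower and 4 higher, with Pck2 at 13.9, 13.9 and 13 against 47.1, 50.3 and 49.8 TPM (-1.72 log2, SE 0.10, adjusted p = 5.2e-11). Without senescent replicate 2 or 3, or with the fixed-sum scaling undone, 7 of them were lower, and without senescent replicate 1 or quiescent replicate 3, 2 were higher. In the cholesterol list 8 of 33 were higher and 10 lower, beside 19.8% and 19.3% of all genes, with 3 lower when the fixed-sum scaling was undone, 5 lower without quiescent replicate 3, and 5 higher without senescent replicate 3 or quiescent replicate 2.

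Oxidative phosphorylation and the proteasome stayed within narrow ranges. Ribosomal protein genes leaned lower in senescence, with a number of calls that depended on the setting. None of 44 genes of oxidative phosphorylation was called by limma, with 5 at an unadjusted p under 0.05 and a median of -0.09 log2, which became 0.12 with the fixed-sum scaling undone. On TPM as deposited 5 were called lower in senescence, and 9 without senescent replicate 1. Of 32 proteasome subunits, 3 were higher, Psmd8, Psmc3 and Psmd11, by 0.51, 0.48 and 0.34 log2, and 10 were with the fixed-sum scaling undone. All 54 ribosomal protein genes had a negative difference, from -1.01 to -0.18 log2, and 35 were called. The count was 49 without senescent replicate 1 and 41 on TPM as deposited, but 6 with the fixed-sum scaling undone, 14 when only the 6 libraries were fitted, 19 without quiescent replicate 1, and 6 without senescent replicate 2, senescent replicate 3 or quiescent replicate 2. Together they took 5.52, 3.66 and 3.82% of the senescent and 6.88, 7.92 and 6.11% of the quiescent TPM, without overlap (two-sided exact permutation p = 0.1, the smallest possible). Among 21 targets of the heat shock factor HSF1, 8 were higher and 1 lower, and 4 were higher without senescent replicate 3. Cryab, the small heat shock protein alpha B-crystallin, was at 458, 807 and 1656 against 257, 116 and 140 TPM (2.44 log2, SE 0.61, adjusted p = 0.0039).

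The MG132 libraries gave the contrast once more, in other libraries of the same cell-states after proteasome inhibition. There 5295 of 13489 genes were called, 39.3%, with 2805 higher in senescent and 2490 in quiescent fibroblasts. Over all genes the 2 contrasts had a Pearson correlation of 0.505, which describes genes and not independent replicates. Of the 2673 genes higher in senescence under DMSO, 1179 were called the same way and 244 the opposite way under MG132, and of the 2603 lower genes, 979 and 111. The difference between the contrasts was itself called for 2745 genes, 20.3%. Of the 23 top genes, 22 kept their direction, 15 were called the same way and 11 had a called difference between treatments. As they were chosen for large DMSO differences, the choice favours smaller differences under MG132.

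Some groups kept their direction and others did not. Lysosomal genes were higher in senescence with a median of 0.58 log2 under MG132, with 34 of 49 higher, and ribosomal protein genes were lower in all 54, with a median of -1.14 log2. Cdkn2a (1.41 log2, adjusted p = 1.5e-05), Igfbp5 (3.85 log2, adjusted p = 3.8e-06) and Hsd3b6 (6.10 log2, adjusted p = 1.5e-11) were again higher. Mitotic genes had a median of -1.08 log2 and only 9 of 36 were called lower, although the difference between treatments was called for 1 of them. Targets of YAP and TEAD turned from a median of 0.75 to -0.41 log2, with 12 of 25 lower and 1 higher, and the difference between treatments was called for 17. Ccn2 went from 2.99 to -1.28 log2 (adjusted p = 6.6e-05 for the difference). The interferon list went from a median of -1.25 to -0.28 log2, with 13 of 33 differing between treatments. Medians of further lists changed sign, among them class I antigen presentation, from -0.63 to 0.25 log2. Under MG132, 4 of its 17 genes were higher and 0 lower. The WNT, BMP and Hedgehog list went from 0.62 to -0.10 log2, with 6 of 32 higher and 10 lower. Immediate early genes went from 0.23 to -0.40 log2, with 5 of 34 higher and 16 lower. Over all genes 20.8% were higher and 18.5% lower under MG132. Cdkn2b, Hmox1 and Grem1, at 1.23, 3.57 and 3.45 log2 under DMSO, were at -0.33, 0.30 and 0.32 log2 under MG132, with adjusted p = 1.2e-05, 0.00065 and 2.5e-10 for the difference.

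**Figure D4:**
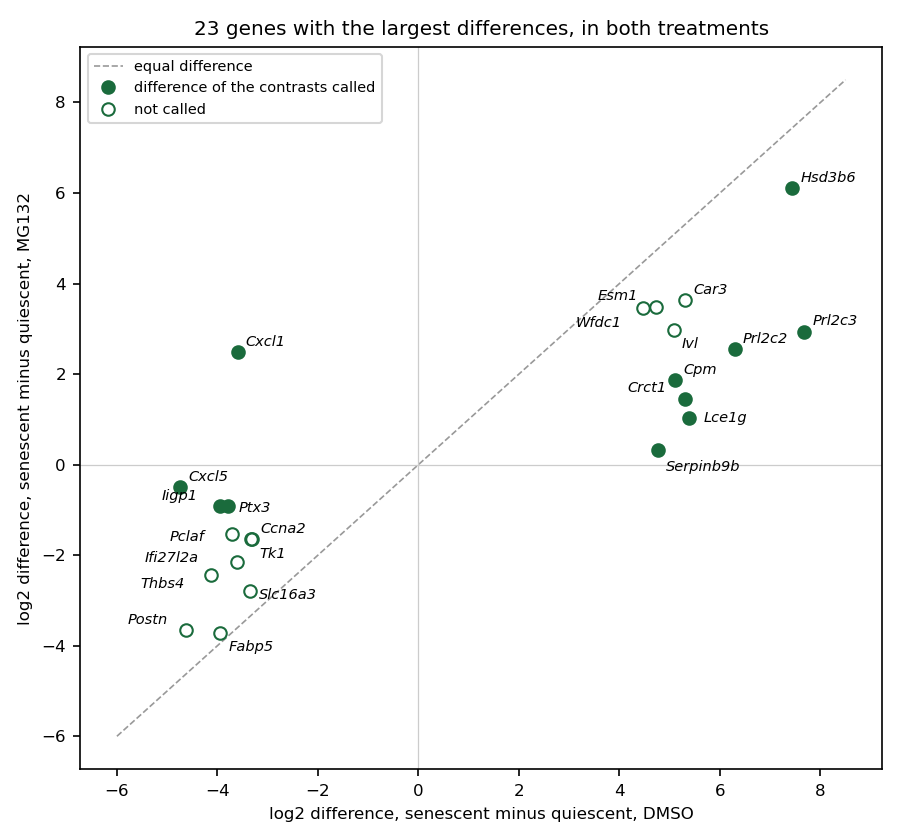
Senescent minus quiescent difference of the 23 genes reported with the largest DMSO differences, on the log2 scale, under DMSO (x axis) and MG132 (y axis), with a dashed line where both are equal. Filled points are genes whose 2 contrasts differed by limma at an adjusted p under 0.05. Cxcl1 lies in the upper left at -3.60 and 2.49, and Hsd3b6 keeps the largest MG132 difference at 6.10.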

How the data were processed

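Poly(A) RNA of 24 fibroblast libraries, 3 in each of 8 groups of cell-state and treatment, was analysed, and 6 of them form the main comparison. The deposited file holds TPM for 19880 genes. The study's methods state that the authors mapped reads with kallisto to GRCm38 transcripts with ERCC spike-in sequences, normalized counts to the spike-in, divided by gene length and scaled each library to a fixed sum. Processing notes by the submitters list HISAT2, StringTie, edgeR, cutadapt and FastQC instead, and the sources used here do not settle which pipeline gave the table. Sequencing depth cannot be read from TPM, and intervals for counting error are therefore not given.

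Libraries were put on 1 scale with size factors, the median of ratios over 13243 genes above 0 in every library. The log2(value + 1) of 13489 genes with at least 1 TPM in at least 3 libraries was modelled in R 4.3.3 by limma 3.58.1 for all 8 groups together, with 16 residual degrees of freedom and a trended prior variance, and P-values were adjusted over all 13489 genes. The procedure was tested on simulated data. The commonest ratio of each library to the first, over genes of low TPM, gave the factor by which the per-million step had scaled each library. Undoing it was an alternative. With the factor removed, the values of 7177 of 19880 genes were whole multiples of 1 step within 0.02. Members and lists were chosen with earlier results of these data known. Of 1155 list entries in 42 lists, 25 genes were not analysed here and 84 were under the filter. Named genes are the 12 largest called differences in each direction with no overlap and a mean of at least 10 TPM, up to 3 called genes in each direction of a list with a mean of at least 5 TPM, a fixed set of arrest, senescence and aggresome genes, and the genes of the printed promoters. A few genes that this rule names are not reported here. Positions are from GENCODE M21, promoters from RefSeq (GRCm38.p6), matched by symbol. The last 25 bases of all 16 promoters examined were found in a transcript of the gene. Figures were drawn with matplotlib 3.10.9. Alternatives were other scalings, pseudocounts and filters, fewer libraries, a replicate block, no trend, array weights and each library left out.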

Additional observations from a re-analysis of the deposited data

Results flagged for a closer look

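The contrast of senescent and quiescent fibroblasts differed between DMSO and MG132 for 11 of the 23 top genes, by limma's test of the difference itself. These genes were chosen for large DMSO differences, and the test reuses those DMSO values. The choice therefore favours a smaller difference under MG132. The value given is the MG132 contrast minus the DMSO contrast on the log2 scale, and no cause was tested. Among genes higher in quiescence under DMSO, it was 4.26 for Cxcl5 (from -4.75 to -0.49), 3.02 for Iigp1 (from -3.94 to -0.92), 2.87 for Ptx3 (from -3.78 to -0.91) and 6.09 for Cxcl1 (from -3.60 to 2.49). Among genes higher in senescence it was -4.74 for Prl2c3, -1.33 for Hsd3b6, -3.74 for Prl2c2, -4.35 for Lce1g, -3.85 for Crct1, -3.25 for Cpm and -4.43 for Serpinb9b. Cxcl1 turned its direction, and the other 10 kept the sign of their DMSO difference under MG132. Groups of 3 libraries were too small for a test of single outlying libraries.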

How the results depend on the processing

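The 5276 genes called became 8825 with array weights, with 4315 higher in senescent and 4510 in quiescent fibroblasts, where the fit of the weights stopped before convergence. With the scaling of TPM to a fixed sum undone, 1495 genes in place of 2603 were higher in quiescence. When only the 6 libraries compared were fitted, 4093 genes were called, and 3994 when only the 12 DMSO libraries were. Leaving out each library gave 3974 to 5838 calls, 2062 to 2916 of them higher in senescent and 1904 to 2922 in quiescent fibroblasts. All 23 top genes kept their direction and call under all 18 alternatives, as did 150 of the 191 named genes called, and none of the 191 turned its direction. The top genes were chosen for large called differences without overlap in these same libraries, which favours that outcome. Cdkn1a, which was not called, turned to 0.15 with the scaling of TPM to a fixed sum undone, 0.02 with array weights, 0.02 without senescent replicate 1 and 0.01 without quiescent replicate 1. Il6 turned to -0.06 without senescent replicate 2 or quiescent replicate 2, -0.01 without senescent replicate 3 and -0.04 without quiescent replicate 3. Mmp3 turned to -0.11 without senescent replicate 3. Over the 6 libraries left out in turn, Cdkn1a ranged from -0.09 to 0.02, Il6 from -0.06 to 0.46 and Mmp3 from -0.11 to 2.07. With the replicate number as a block, 5250 genes were called, and the call of 0 of the 198 named genes tested changed. Deviations of same-numbered senescent and quiescent libraries correlated at -0.616, -0.388 and 0.147, so the numbers were not taken as pairs. With 3 libraries in each group, exact tests over libraries cannot go below 0.1, and TPM gives no depth for genes near 0.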
